A study of Rattus norvegicus with 8 samples.

Results

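Bromocriptine (BRC) was examined in MMQ, a prolactin-secreting line from a pituitary tumour of the rat, on 4 arrays of a series of 8. Both arrays with BRC, MMQ BRC and MMQ CAB+BRC, were set against both arrays without it, MMQ control and MMQ CAB, where CAB is cabergoline. The members were chosen by these drug labels, and each pair was matched by the presence of CAB. BRC was thus measured on its own (BRC against control) and on top of CAB (CAB+BRC against CAB). These pairs have no array in common. The other 4 arrays hold the same conditions in GH3, another rat pituitary line, which makes growth hormone as well as prolactin.

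Each condition was 1 array of total RNA from cultured cells, with no genetic change in any group. MMQ cells were grown in F12 medium with horse serum and fetal calf serum, and both drugs came from DMSO stocks that were diluted in medium without serum. MMQ control had neither drug, and whether it had DMSO was not given for the array. MMQ BRC had BRC and MMQ CAB had CAB, each at 50 µM, while the sources used here do not give the doses of both drugs in MMQ CAB+BRC. CAB+BRC against CAB may therefore also differ in the dose of CAB, and the BRC pairs may differ in the dose of BRC. A difference in that pair, and any value built on it, cannot be told apart from such a difference in dose. Treatment lasted 48 h for MMQ control and MMQ CAB. A time of 48 h is also stated for treatment with BRC or CAB in general, but not for MMQ BRC or MMQ CAB+BRC by name. MMQ is a single line, and 1 culture stood for each condition, so no spread between cultures was measured. The deposited intensities were on similar scales, with array medians of 45.9 to 47.6 in MMQ and 48.4 to 49.9 in GH3. The names that the file gives to its rows did not go with the values, and the row named Prl, the gene of prolactin, read only 11.7 to 16.2 in the MMQ arrays. The cell identity could therefore not be checked by markers. Genes are named only where the fold that the study prints for them equals the ratio of exactly 1 row, which held for 20 genes reported here, and all other rows are given as unnamed probe sets.

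BRC and CAB are both ergoline compounds that activate the dopamine D2 receptor. BRC carries a bromine and a cyclic peptide part, and CAB carries an acylurea side chain in place of the peptide. In lactotroph cells of the pituitary the D2 receptor lowers cyclic AMP, prolactin release and growth, and for this reason both drugs are given against prolactin-secreting tumours. EGR1, a zinc finger transcription factor of the immediate early class, is switched on through ERK signalling and serum response factor. MVD, mevalonate diphosphate decarboxylase, is an enzyme of cholesterol synthesis that is controlled by sterol-responsive factors.

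Upstream sequences are shown for EGR1, the gene that was followed in both lines, and for MVD, which had the smallest unadjusted p for BRC among the named genes. They are the 250 bases before the start of each gene from RefSeq, build GRCr8, at chr18:26736828-26737077 on the plus strand for EGR1 and chr19:67414975-67415224 on the minus strand for MVD. Capitals mark matches of the serum response motif, which is CC, then 6 bases that are each A or T, then GG, searched on both strands.
EGR1: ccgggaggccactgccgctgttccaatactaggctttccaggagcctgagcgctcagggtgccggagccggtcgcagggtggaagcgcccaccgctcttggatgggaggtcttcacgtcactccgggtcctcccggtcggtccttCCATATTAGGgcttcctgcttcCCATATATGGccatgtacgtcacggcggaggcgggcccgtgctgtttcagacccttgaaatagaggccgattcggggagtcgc
MVD: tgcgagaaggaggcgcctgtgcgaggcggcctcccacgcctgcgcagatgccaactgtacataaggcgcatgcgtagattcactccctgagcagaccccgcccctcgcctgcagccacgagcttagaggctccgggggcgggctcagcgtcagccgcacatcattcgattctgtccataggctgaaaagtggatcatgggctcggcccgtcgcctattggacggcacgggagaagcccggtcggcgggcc
The EGR1 sequence held 2 matches, beginning 105 and 83 bases before the start, and the MVD sequence held none. This motif was present in 1.5% of all 33469 promoters of this length, and among the 19 named genes with an upstream sequence only EGR1 held it. A match is a description of the letters and was not tested as a site. The motifs TTTGAA, found in ASPM and GAA, and CACGTG, found in AP1S2 and GAA, were present in 16.2% and 5.59% of all promoters. TCACNCCAC (0.974% of all promoters), TGACGTCA (1.59%), TGATGNAAT (0.944%) and GCGNGGGCG (4.29%) were in none of the windows of the named genes.

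BRC differences in MMQ were few on their own and more numerous on top of CAB. Against control, BRC was at least 2-fold higher for 34 probe sets (0.12% of 28295) and at least 2-fold lower for 40 (0.141%). With CAB present, BRC was at least 2-fold higher for 167 probe sets (0.59%) and at least 2-fold lower for 37 (0.131%), so 81.9% of these differences were upward, compared with 45.9% without CAB. The median log2 difference was near 0 in both pairs, at -0.01 and -0.03, and the SD over probe sets was 0.251 without and 0.308 with CAB. These are single arrays against single arrays, so the counts have no p-value and hold the noise of 2 arrays each.

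The excess of upward differences with CAB present began from lower values in the CAB array. Over the 167 probe sets the median intensity was 114 in MMQ control, 175 in MMQ BRC, 74.0 in MMQ CAB and 179 in MMQ CAB+BRC. The array with CAB alone was thus the lowest of the 4 and both arrays with BRC were nearly level. The median log2 difference for BRC of this list was 1.17 with CAB, by which it was chosen, and 0.48 without CAB, where 151 of the 167 were above 0. Of all probe sets, 47.9% were above 0 without CAB. The CAB array is part of the pair that chose the list, so its low values are a description.

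The smaller lists leaned the same way in the pair that had not chosen them. Of the 34 probe sets 2-fold higher without CAB, 24 were above 0 with CAB, compared with 45.1% of all probe sets, and their median was 1.18 without and 0.48 with CAB. Of the 40 that were 2-fold lower without CAB, 31 were below 0 with CAB, with medians of -1.23 and -0.32. Above 0 with CAB were 22.5% of this list, against the same 45.1% of all probe sets. Of the 37 that were 2-fold lower with CAB, 32 were below 0 without it, with medians of -1.18 with and -0.40 without CAB. Above 0 without CAB were 13.5% of this list, against 47.9% of all probe sets. The median in the second measurement was smaller than in the measurement that made the list, in each of the 4 lists. A cut at 2-fold in a noisy measurement leads to this order, so it is no result about BRC. Across all probe sets the 2 BRC differences had a Pearson correlation of 0.432, and of 0.457 over the 14147 probe sets brighter than the median. Probe sets of an array are not independent replicates, and this value is a description.

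At least 2-fold apart the same way in both BRC pairs were 11 probe sets. The 7 on the higher side are 20.6% of the 34 without CAB, while 0.59% of all probe sets were 2-fold higher with CAB. They are 4.19% of the 167 with CAB, while 0.12% of all were 2-fold higher without it. The 4 on the lower side are 10% of the 40 and 10.8% of the 37, where the shares of all probe sets were 0.131% and 0.141%. These shares were larger than those of all probe sets and were not tested. No probe set was 2-fold higher in one pair and 2-fold lower in the other.

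**Figure D1:**
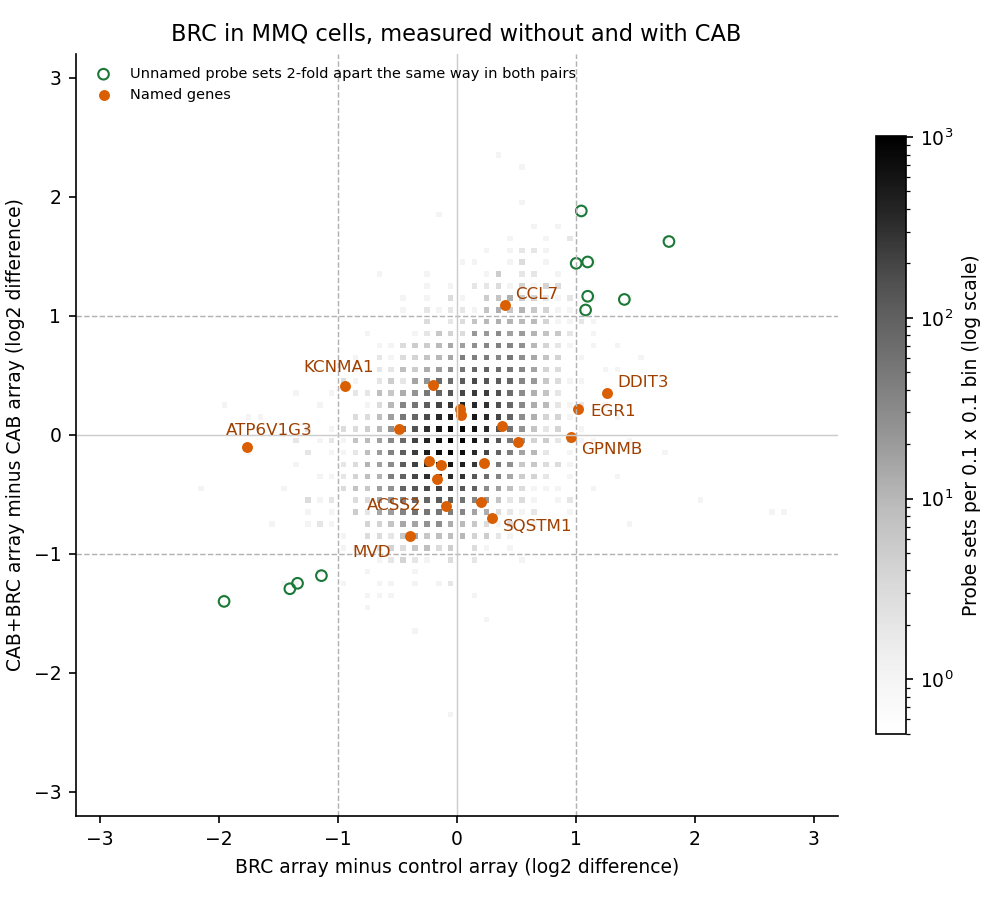
BRC difference without CAB (x axis, BRC array minus control array, log2) against BRC difference with CAB (y axis, CAB+BRC array minus CAB array, log2) in MMQ cells. Grey squares give the number of probe sets per bin on a log scale, dashed lines mark 2-fold, open circles are the 11 unnamed probe sets 2-fold apart the same way in both pairs and filled circles are the 20 named genes, none of which lies in those corners.

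The largest repeated difference by intensity was that of a bright probe set on the lower side. It read 7726 in MMQ control, 2924 in MMQ BRC, 3993 in MMQ CAB and 1628 in MMQ CAB+BRC. BRC was lower by log2 differences of -1.40 without and -1.29 with CAB, and CAB without BRC by -0.95, so the array with both drugs was the lowest of the 4. In GH3 the same probe set read 1164 in control and 216 with BRC, a log2 difference of -2.42. It was the only one of the 11 that was also 2-fold apart the same way for BRC against control in GH3. Whether it encodes a secreted hormone or any other product is not known, because its row has no usable name.

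A bright probe set on the higher side took the opposite order under CAB. It read 719 in MMQ control, 1486 in MMQ BRC, 354 in MMQ CAB and 1306 in MMQ CAB+BRC. BRC was higher by log2 differences of 1.05 and 1.88, CAB without BRC was lower by -1.02, and both arrays with BRC lay above both without it. In the 4 GH3 arrays this probe set read only 7.47 to 10.9, and its log2 difference for BRC there was -0.20.

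The other repeated probe sets were dimmer. Another on the higher side read 33.5, 118, 20.6 and 65.7 in MMQ control, BRC, CAB and CAB+BRC, in this order. The remaining 5 on that side were between 38.0 and 228 in all 4 arrays. On the lower side the values in the same order were 202, 51.4, 143 and 53.7 for one, 132, 51.6, 159 and 66.2 for another, and 195, 88.1, 63.8 and 27.5 for the last. Both arrays with BRC lay outside both arrays without BRC for 6 of the 7 higher and 3 of the 4 lower probe sets. Over all probe sets both arrays with BRC lay above both without for 16.3% and below both for 24.2%, so an order of this kind is common on its own. Of the 7 and the 4, 5 and 3 were brighter than the median. In GH3 the BRC differences of the 7 ran from -0.47 to 0.97.

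**Figure D2:**
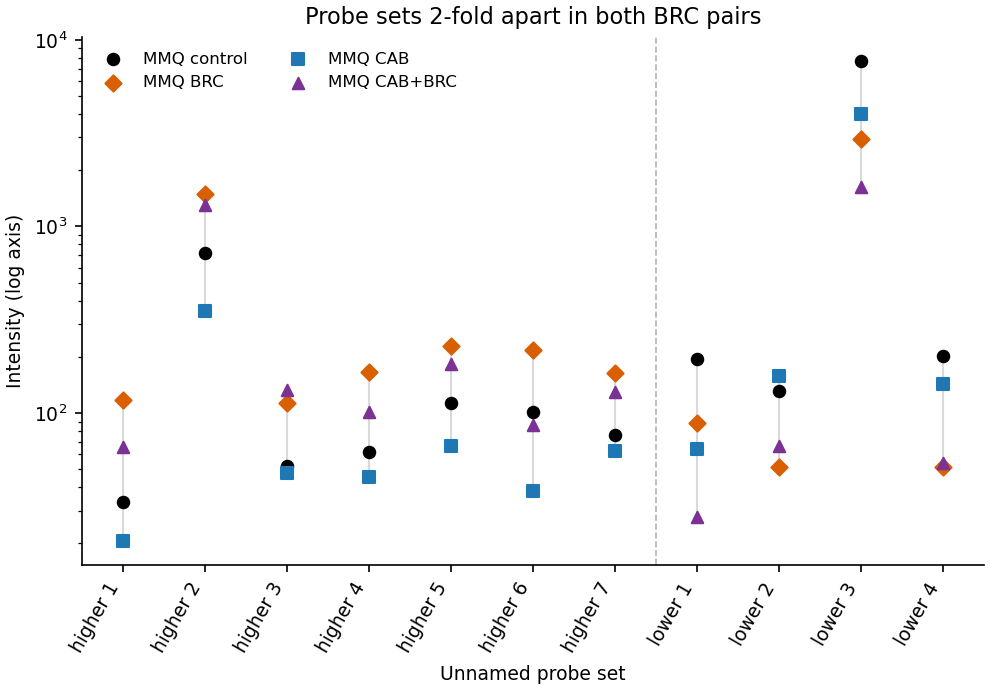
Deposited intensity (log axis) of the 11 unnamed probe sets at least 2-fold apart in both BRC pairs, with 1 point per MMQ array. The 7 on the left were higher and the 4 on the right lower with BRC, and the brightest of the lower ones ran from 7726 in control to 1628 with both drugs.

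With the 2 BRC pairs taken as repeats, no probe set passed the test. The additive fit by limma on all 8 arrays, with CAB and BRC effects in each line, called 0 of 14147 probe sets higher (0%) and 0 lower (0%) for BRC in MMQ at a Benjamini-Hochberg adjusted p under 0.05, while 1663 had an unadjusted p below 0.05. With the 4 MMQ arrays alone limma also called 0, with 2865 at an unadjusted p below 0.05. In the fit to all 8 arrays the smallest adjusted p was 0.297, and with the MMQ arrays alone it was 0.124. The value of 0.297 was shared by several probe sets on both sides, among them that of MVD on the lower side. The ranks that follow count only probe sets that were matched to no gene. The first on the higher side read 61.6, 165, 45.6 and 101 in control, BRC, CAB and CAB+BRC, with an effect of 1.27 on the log2 scale (SE 0.143), and the next had an effect of 1.70 (SE 0.210). The first on the lower side had an effect of -1.29 (SE 0.135), and the next read 372, 188, 267 and 138, an effect of -0.96 (SE 0.125). These effects are means of both BRC pairs. Their spread comes from 2 residual degrees of freedom, the departure from additivity in MMQ and that in GH3. The intervals for MMQ thus also hold how unlike the 2 BRC pairs of GH3 were. A p above the threshold does not show that a level was the same.

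The named genes gave the same picture at the level of single genes. Of the 20, 15 were bright enough to be tested, 0 were called for BRC, and 3 had an unadjusted p below 0.05, namely EGR1, DDIT3 and MVD. Of all 14147 probe sets tested by limma, 1663 had such a p, so a count of 3 carries little weight. Adjusted p-values by limma ran from 0.297 to 0.997. Both BRC differences were above 0 for 6 of the 20, below 0 for 6 and of opposite sign for 8, while 29.0% of all probe sets were above 0 in both pairs and 35.8% below. The median BRC difference of the 20 was 0.03 without and -0.04 with CAB. Of these genes, 8 come from the study's list for BRC in GH3 and were therefore chosen on other arrays, while 13 come from its list for CAB in MMQ, with LGALS3 in both. The genes of the CAB list were chosen on the MMQ CAB and MMQ control arrays. For a gene chosen as higher with CAB, this choice pulls the BRC difference without CAB up and that with CAB down, and for a gene chosen as lower the reverse, so the mean of both pairs is used for the test.

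**Figure D3:**
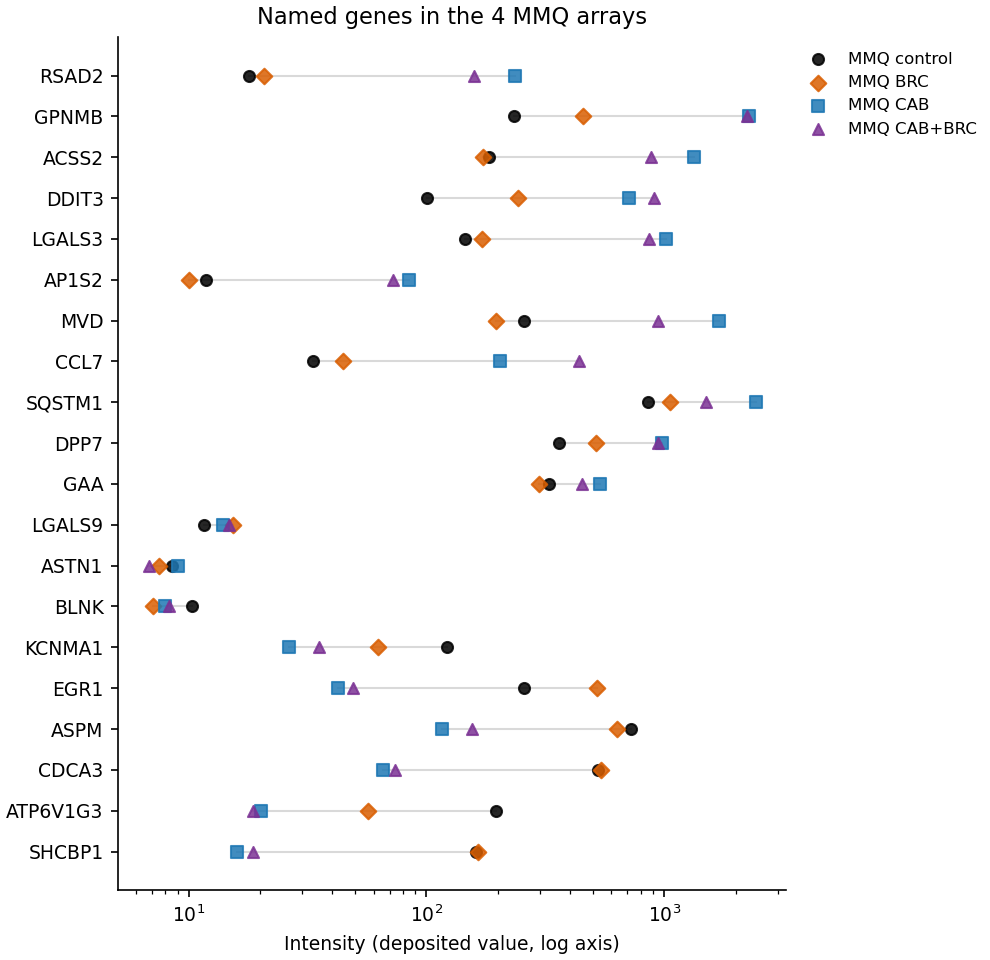
Deposited intensity (log axis) of the 20 named genes in the 4 MMQ arrays, ordered by the CAB difference without BRC. For most genes with a wide range the circle of the control lies near the diamond of BRC and the square of CAB near the triangle of CAB+BRC, as for CDCA3 with 528 and 542 against 66.0 and 74.1.

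EGR1 was higher with BRC in both pairs, but by 2-fold only without CAB. Its intensity was 256 in MMQ control, 521 in MMQ BRC, 42.4 in MMQ CAB and 49.3 in MMQ CAB+BRC. Both arrays with CAB lay far below both without it, and within each level of CAB the array with BRC was the higher. The log2 difference for BRC was 1.02 without CAB, a 2.03-fold value, and 0.21 with CAB. The BRC effect over both pairs was 0.62 (SE 0.245, 95% interval 0.03 to 1.20, limma adjusted p = 0.411). The array with both drugs was 0.81 lower on the log2 scale than the sum of the separate drugs would give. EGR1 was chosen in GH3, where it read 413 in control, 2037 with BRC, 791 with CAB and 2390 with both drugs. The CAB array was thus below control in MMQ and above it in GH3, while the array with BRC was the higher of each pair in both lines. Its upstream sequence with the 2 serum response matches, printed above, is that of the reference, and no sequence of either line was read.

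Of the stress genes, DDIT3, the endoplasmic reticulum stress factor also called CHOP, had the highest BRC effect among the named genes. Its intensity was 101 in MMQ control, 243 in MMQ BRC, 714 in MMQ CAB and 910 in MMQ CAB+BRC, so control was the lowest and the array with both drugs the highest. BRC was the higher of both pairs, by log2 differences of 1.26 (2.40-fold) without and 0.35 with CAB. The effect was 0.81 (SE 0.310, 95% interval 0.06 to 1.55, limma adjusted p = 0.399). SQSTM1, the autophagy receptor p62, read 857 in MMQ control, 1053 in MMQ BRC, 2433 in MMQ CAB and 1498 in MMQ CAB+BRC. Here the array with both drugs lay between the single drugs, and the BRC differences were opposite, 0.30 without and -0.70 with CAB. The interval of its effect was -0.76 to 0.36 (limma adjusted p = 0.80).

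Both genes of sterol and acetyl-CoA supply were lower with BRC in both pairs, and more so with CAB present. Below 0 in both pairs were 35.8% of all probe sets. Both genes were chosen as higher with CAB against control, which pulls the BRC difference with CAB down and that without CAB up. The larger size with CAB is therefore no result about BRC. MVD read 259 in MMQ control, 197 in MMQ BRC, 1698 in MMQ CAB and 939 in MMQ CAB+BRC. The CAB arrays were the highest, and within each level of CAB the array with BRC was the lower, by log2 differences of -0.39 and -0.85. Its effect of -0.62 had the narrowest interval of the named genes (SE 0.156, 95% interval -0.997 to -0.25, limma unadjusted p = 0.00622, adjusted p = 0.297). ACSS2, the cytosolic acetyl-CoA synthetase, read 184 in MMQ control, 173 in MMQ BRC, 1331 in MMQ CAB and 881 in MMQ CAB+BRC. Its BRC differences were -0.09 without and -0.59 with CAB, with an interval of -0.90 to 0.22 for the effect (limma adjusted p = 0.625). For both genes CAB+BRC stayed well above control, by 1.86 and 2.25 on the log2 scale, against 2.71 and 2.85 for CAB without BRC. The values for CAB without BRC are those by which the genes were chosen, so their larger size is no result about BRC.

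The 3 genes of cell division showed small BRC differences. ASPM, which organises the mitotic spindle, read 727 in MMQ control, 635 in MMQ BRC, 116 in MMQ CAB and 156 in MMQ CAB+BRC. CDCA3, a factor of mitotic entry, read 528, 542, 66.0 and 74.1 in the same order, and SHCBP1, a protein of the midbody in dividing cells, read 161, 165, 15.9 and 18.7. The arrays fell into a high pair without CAB and a low pair with CAB, and the BRC array of each pair stayed near its partner. BRC differences without CAB were -0.20, 0.04 and 0.03 for ASPM, CDCA3 and SHCBP1, and with CAB they were 0.42, 0.17 and 0.22. The 95% intervals of the effects were -0.55 to 0.77, -0.39 to 0.59 and -0.66 to 0.90, which include 0 and leave room for differences of up to these sizes. In GH3 the BRC differences without and with CAB were farther apart, at -0.91 and 0.17, -0.66 and 0.15, and -1.03 and 0.48. The intervals for MMQ hold that spread as well.

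Genes of the lysosome and of vesicles went different ways. GPNMB, a glycoprotein of lysosomes and melanosomes, read 233 in MMQ control, 454 in MMQ BRC, 2267 in MMQ CAB and 2237 in MMQ CAB+BRC. It was 0.96 higher with BRC without CAB and level with CAB present, at -0.02. ATP6V1G3, a subunit of the proton pump of acidic vesicles, read 196, 57.1, 20.2 and 18.7 in the same order. Its BRC difference was -1.76 without CAB, the lowest among the named genes, and -0.10 with CAB, where both arrays were near the dim end. The departure of the array with both drugs from the sum of the separate drugs was accordingly -0.98 for GPNMB and 1.66 for ATP6V1G3, the latter the highest among the named genes. The limma effects were 0.47 (95% interval -0.18 to 1.12, adjusted p = 0.556) and -0.93 (-2.15 to 0.28, adjusted p = 0.531).

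The other genes of this group varied less with BRC. GAA, the lysosomal enzyme that degrades glycogen, read 326 in MMQ control, 297 in MMQ BRC, 537 in MMQ CAB and 450 in MMQ CAB+BRC, with BRC differences of -0.13 and -0.25. DPP7, a dipeptidyl peptidase of vesicles, read 360, 516, 983 and 944, with differences of 0.52 and -0.06. AP1S2, a subunit of the clathrin adaptor AP-1, read 11.9, 10.002, 84.5 and 72.3, and its differences of -0.23 and -0.22 were nearly the same without and with CAB. Without CAB it was dim, so its difference there carries little weight. With a pseudocount of 16 its limma effect was -0.14 instead of -0.23. GAA and DPP7 were both chosen in GH3 by BRC against control, where their log2 differences were 1.77 and 1.55. With CAB present in GH3, in the pair that did not choose them, the BRC differences were 0.14 and -0.40. Neither gene reached the size of the choosing pair in that GH3 pair or in either BRC pair of MMQ.

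**Figure D4:**
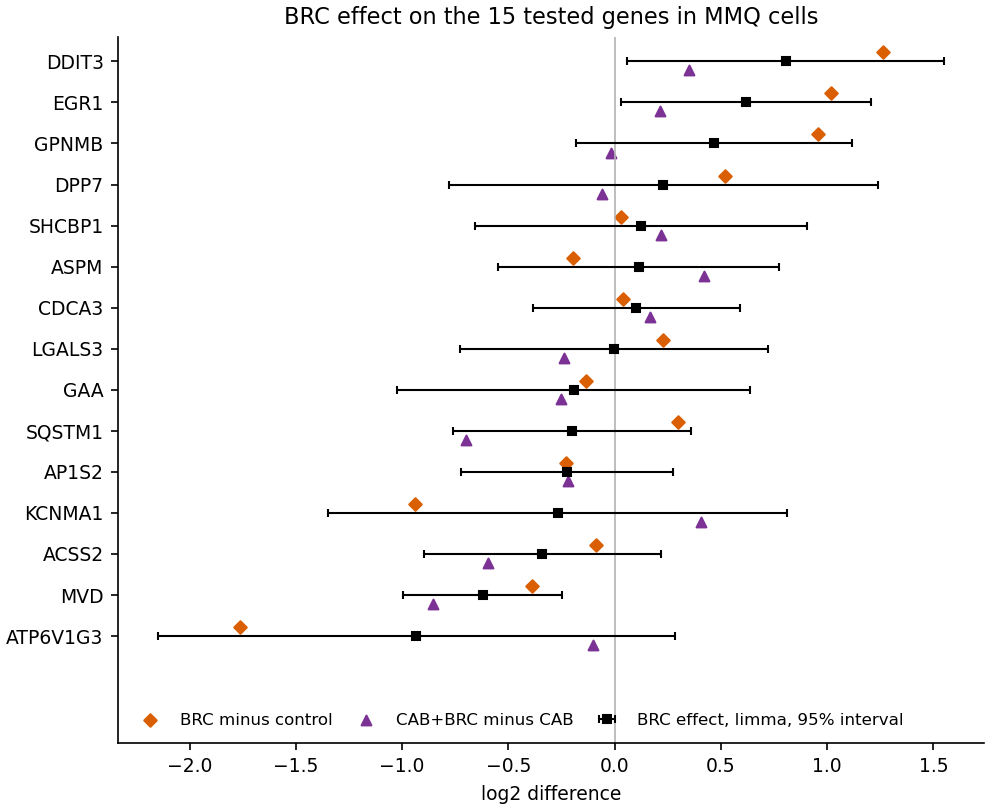
BRC differences of the 15 tested genes in MMQ on the log2 scale. Diamonds are BRC minus control, triangles CAB+BRC minus CAB, and squares with bars the limma effect with its 95% interval, which excludes 0 for DDIT3, EGR1 and MVD before adjustment for multiple tests. Of all 14147 probe sets tested, 1663 had an unadjusted p below 0.05 by limma.

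The galectins, which are sugar-binding proteins, were nearly level with BRC. LGALS3 read 146 in MMQ control, 171 in MMQ BRC, 1021 in MMQ CAB and 865 in MMQ CAB+BRC. Its BRC differences were 0.23 and -0.24, with an interval of -0.73 to 0.72 for their mean. LGALS9 was dim at 11.6, 15.4, 13.9 and 14.8, and was not tested. It was the only named gene with both arrays with BRC above both without it, at differences of 0.38 and 0.08, and such an order was found for 16.3% of all probe sets.

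Both innate immune genes were dim without CAB and were not tested. CCL7, a chemokine that attracts monocytes, read 33.3 in MMQ control, 44.5 in MMQ BRC, 205 in MMQ CAB and 437 in MMQ CAB+BRC. Its BRC difference was 1.09 with CAB (2.13-fold), the only 2-fold BRC difference among the named genes in that pair, and 0.41 without. RSAD2, an antiviral protein induced by interferon, read 17.97, 20.8, 235 and 159. It went the other way with CAB present, at -0.56, after 0.20 without CAB. Both genes were highest in an array with CAB, and the highest was CAB+BRC for CCL7 and CAB for RSAD2.

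Of the genes of membrane, signalling and adhesion, KCNMA1 was the only one above the dim range. This gene encodes the large-conductance potassium channel. It read 122 in MMQ control, 62.9 in MMQ BRC, 26.5 in MMQ CAB and 35.5 in MMQ CAB+BRC, so both single drugs were below control. The BRC difference was -0.94 without and 0.41 with CAB, and the interval of the effect was -1.35 to 0.81. BLNK, the linker protein of B cell receptor signalling, stayed between 7.10 and 10.3, and ASTN1, a neuronal adhesion protein, between 6.79 and 9.07. ASTN1 was the only named gene with both arrays with BRC below both without it, an order found for 24.2% of all probe sets, and at these intensities differences of -0.17 and -0.37 carry little weight.

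Whether BRC adds to the CAB response or opposes it was described on the probe sets that were 2-fold apart with CAB. A probe set chosen by CAB against control shares an array with each BRC pair, which pulls the BRC difference without CAB and the one with CAB in opposite ways, so both are given side by side. For 306 probe sets at least 2-fold higher with CAB against control, the median BRC difference was 0.12 without and -0.21 with CAB. For 389 that were at least 2-fold lower, it was 0.02 without and 0.18 with CAB. When the lists were chosen by CAB+BRC against BRC, the pull was reversed, and so were the sizes. The medians were -0.16 without and 0.03 with CAB for the 246 higher probe sets, and 0.09 and 0.01 for the 308 lower ones. Over all probe sets they were -0.01 and -0.03.

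A list taken from both CAB pairs, defined after these values had been seen, is pulled both ways in each BRC pair. For the 156 probe sets at least 2-fold higher in both CAB pairs, the median BRC difference was -0.13 without and -0.16 with CAB. For the 246 at least 2-fold lower in both, it was 0.05 and 0.08. The CAB differences of the same lists were 1.52 and 1.48, and -1.66 and -1.58, so BRC differences were small beside them. The spread was wide, with 10th and 90th percentiles of -0.74 and 0.47 without CAB for the higher list. The medians were thus on the side against CAB in both lists, by less than the spread of all probe sets in a BRC pair, except that after quantile normalization the lower list without CAB was at -0.01. No test was made, since the lists were chosen by values of these same arrays.

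**Figure D5:**
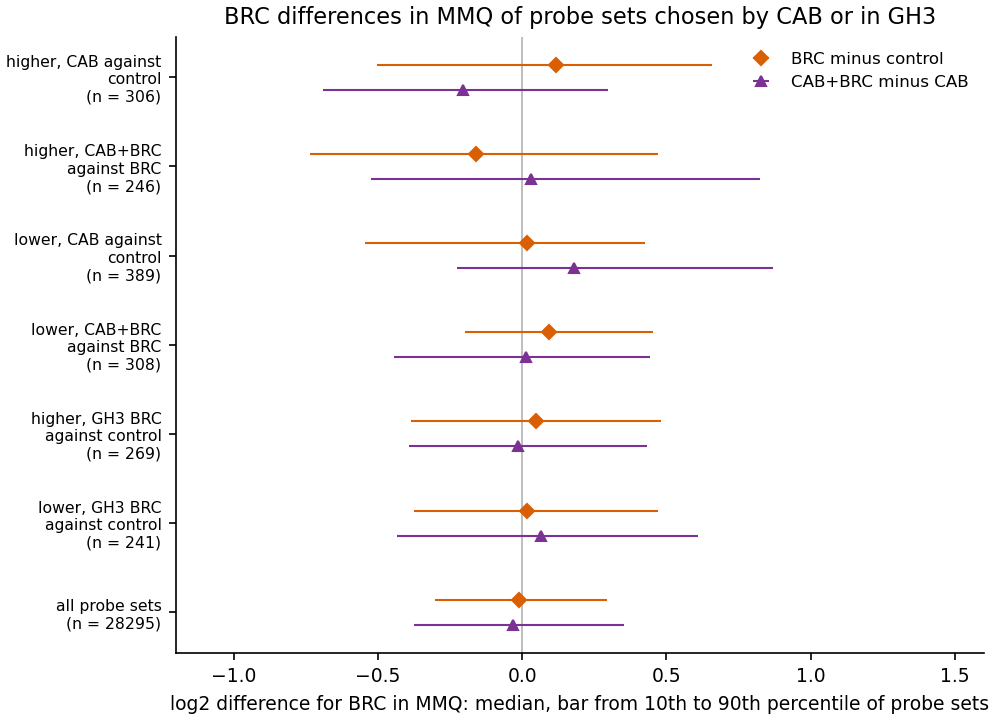
Median BRC difference in MMQ (points) with the 10th to 90th percentile over probe sets (bars), without CAB (diamonds) and with CAB (triangles), on the log2 scale. The order of the 2 medians in the lists chosen by CAB against control (0.12 and -0.21, 0.02 and 0.18) is the reverse of that in the lists chosen by CAB+BRC against BRC (-0.16 and 0.03, 0.09 and 0.01), and lists chosen by BRC in GH3 stay near the median of all 28295 probe sets.

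The array with both drugs was set against the sum of the separate drugs. The departure from that sum was at least 2-fold for 183 probe sets, or 0.647%, with 109 above and 74 below, and its SD was 0.302 on the log2 scale. This is as wide as the BRC differences themselves, whose SDs were 0.251 and 0.308, so it does not show that the drugs add. If the 4 arrays were equally noisy, this corresponds to an SD of 0.213 for a single BRC difference, and noise and true interaction are not separated in it. Of the named genes, departures ran from -0.997 for SQSTM1 to 1.66 for ATP6V1G3. Genes of the CAB list were chosen on arrays that enter the departure, and a high CAB difference pulls it down.

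BRC and CAB were also set against each other in MMQ, as 1 array against 1 array, with a spread taken from the departures of the fit. Both single drugs were labelled with the same dose, while the time of the MMQ BRC array was stated only in general, and 1 pair of compounds was compared. The CAB-minus-BRC contrast of the fit, which equals the CAB array minus the BRC array, was called higher with CAB for 85 of 14147 probe sets (0.601%) and lower for 155 (1.1%) by limma at an adjusted p under 0.05. Of the 15 tested genes, 5 were called higher with CAB than with BRC and 4 lower. EGR1, which was chosen on GH3 arrays only, was lower with CAB than with BRC by a log2 difference of -3.59 (95% interval -4.42 to -2.76, limma adjusted p = 0.0164). This call was lost without the MMQ BRC array (adjusted p = 0.232) and without the MMQ CAB array (adjusted p = 0.0994), and over all alternatives its adjusted p by limma ran from 0.00471 to 0.232. The other 8 of the 9 were on the list chosen by CAB in MMQ and are no independent sign. They were MVD (3.10, limma adjusted p = 0.0164), AP1S2 (2.96, or 1.95 with a pseudocount of 16), ACSS2 (2.93), LGALS3 (2.57) and GPNMB (2.32) on the higher side. On the lower side they were SHCBP1 (-3.29), CDCA3 (-3.02) and ASPM (-2.44). DDIT3, SQSTM1, GAA, DPP7, KCNMA1 and ATP6V1G3 were not called. For DDIT3 the difference was 1.55 (95% interval 0.50 to 2.61, limma adjusted p = 0.147), and for SQSTM1 1.21 (0.42 to 2.00, adjusted p = 0.135). These calls depend on single arrays, since without the MMQ BRC array 0 probe sets were called and without the MMQ CAB array 3, while without any 1 GH3 array there were 955.

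The probe sets 2-fold apart with BRC in GH3 were chosen without any MMQ array. They were 2-fold apart with BRC in MMQ in small numbers, some of them at larger shares than all probe sets. Of 269 probe sets at least 2-fold higher with BRC in GH3, 3 were 2-fold higher and 1 was 2-fold lower with BRC in MMQ without CAB, and 2 and 2 with CAB. The 3 are 1.12% of the list, against 0.12% of all probe sets. The 2 that were higher with CAB are 0.743% against 0.59%, which is near the share of all. The 1 and the 2 that were lower are 0.372% against 0.141% and 0.743% against 0.131%, and counts this small carry little weight. Of 241 that were at least 2-fold lower in GH3, 3 were higher and 7 lower without CAB, and 5 were higher and 1 lower with CAB. The 7 are 2.90% of the list against 0.141% of all, the 3 that were higher are 1.24% against 0.12%, and the 5 are 2.07% against 0.59%. The 1 that was lower with CAB is 0.415% against 0.131%. Shares above those of all probe sets were thus found in the same direction as in GH3 and in the opposite one, and they were not tested. The medians of the lists in MMQ were 0.05 and -0.02 for the higher and 0.02 and 0.06 for the lower, without and with CAB. Of the 8 named genes chosen by BRC in GH3, EGR1 was the only one 2-fold higher with BRC in MMQ, and that in the pair without CAB.

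The difference between the lines was tested as BRC in MMQ minus BRC in GH3. By limma 0 of 14147 probe sets were called higher (0%) and 0 lower (0%), and 2194 had an unadjusted p below 0.05. Among these were 3 named genes. EGR1 had a smaller BRC effect in MMQ, with a difference of effects of -1.33 (95% interval -2.16 to -0.50, adjusted p = 0.218). MVD had a difference of -0.81 (-1.34 to -0.28, adjusted p = 0.218) and LGALS3 one of -1.11 (-2.14 to -0.09, adjusted p = 0.292). EGR1 and LGALS3 were chosen for a high BRC difference in GH3, which pulls this contrast down, while MVD was not chosen on GH3 arrays. DDIT3 went the other way, at 0.99 (-0.07 to 2.04, adjusted p = 0.343), and read 1063 in GH3 control, 634 in GH3 BRC, 543 in GH3 CAB and 705 in GH3 CAB+BRC. Its level in the GH3 control was thus the highest of that line, while in MMQ the control was the lowest.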

How the data were processed

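RNA of MMQ and GH3 cells was hybridised to Affymetrix rat genome arrays, 1 for each condition and without replicates. The authors computed 1 value per probe set and array with the Affymetrix Command Console software and deposited it as an intensity on a linear scale. Summarization, background correction and normalization were not given in the sources used here. Precision is limited by the number of arrays. The labels gave each array its condition.

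From the deposited intensities log2(value + 1) was computed for 28295 probe sets, with no further scaling. Probe sets were counted at 2-fold or more in each pair. limma 3.58.1 in R 4.3.3 (lmFit, eBayes) was fitted to 8 arrays with terms for the line and, in each line, for CAB and for BRC, on the 14147 probe sets whose mean log2 value was above the median, two-sided, with Benjamini-Hochberg adjustment. It leaves 2 residual degrees of freedom. The script was tested on simulated data.

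Of 26 entries in the study's lists of genes, 24 matched exactly 1 row within a relative tolerance of 1e-06, in 23 distinct probe sets (largest relative difference 4.37e-07), and 0 of these rows carry the name of the entry. CCL2 and TTK matched none. The rule for named genes took every matched gene, up to 3 unnamed probe sets on each side by limma, and no other. The probe sets 2-fold apart in both BRC pairs, or called with an array left out, are described beyond this rule and were picked after their values were seen. Single results of 3 matched genes are not reported here. The members and lists were chosen with earlier results of these data known. Upstream sequences are from RefSeq (19 of the 20 named genes). Alternatives were quantile normalization, median centring, a pseudocount of 16, and cutoffs of 1.5-fold and 3-fold. The fit was also made without the filter on dim probe sets, and the counts were also made with it. Further fits used a trended prior, no CAB term or the MMQ arrays alone, or left out each array.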

Additional observations from a re-analysis of the deposited data

How the results depend on the processing

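The additive fit called 0 probe sets for BRC in MMQ under every scaling, pseudocount and prior tried, and with no filter on dim probe sets. Without the CAB term it also called 0 (974 at an unadjusted p below 0.05 by limma). Leaving out each array gave 0 to 2 calls, with 2 only without the MMQ CAB or the MMQ CAB+BRC array. For CAB minus BRC the 240 calls became 955 with the MMQ arrays alone and 0 to 955 when each array was left out. They were 955 without any 1 GH3 array, 0 without MMQ BRC (984 at an unadjusted p below 0.05), 3 without MMQ CAB and 220 without MMQ control or MMQ CAB+BRC. For the lines' difference in BRC leaving out each array gave 0 to 0 calls. With a pseudocount of 16 the 2-fold counts were 40 without CAB (74 as reported), 105 with CAB (204), 5 in both pairs (11) and 77 for the departure (183). Probe sets brighter than the median alone gave 44, 131 and, for the departure, 111. A cutoff of 1.5-fold gave 751, 1725 and 228 in both pairs, and 3-fold gave 11, 14 and 1. With CAB, the split was 1006 higher and 719 lower at 1.5-fold, 207 and 25 after median centring and 148 and 28 after quantile normalization. Of the values of named genes, 569 kept their direction and side of the threshold, 18 calls of CAB minus BRC were lost without MMQ BRC or MMQ CAB, and 10 were gained for GAA and DDIT3, without any 1 GH3 array or with MMQ arrays alone (adjusted p by limma 0.0354 and 0.0499). A line that lost an array has no residual of its own, and its spread was taken from the other line. The sign of 15 values that were not called turned when an array was left out. For BRC the ranges were -0.94 to 0.41 (KCNMA1), -0.24 to 0.23 (LGALS3, at 0.038 after median centring), -0.059 to 0.52 (DPP7), -0.020 to 0.96 (GPNMB), -0.70 to 0.30 (SQSTM1) and -0.20 to 0.42 (ASPM). For CAB minus BRC they were -2.56 to 0.13 (KCNMA1) and -3.11 to 0.20 (ATP6V1G3). For MMQ minus GH3 they were -1.32 to 0.63 (DPP7), -0.58 to 0.28 (ACSS2), -0.84 to 0.0018 (AP1S2), -0.36 to 1.15 (SHCBP1), -0.49 to 1.38 (ATP6V1G3), -0.049 to 0.76 (CDCA3) and -0.059 to 1.03 (ASPM). No paired analysis was possible because each condition has 1 array, and CAB is already the block of both BRC pairs. The causes of these shifts were not tested.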

Other observations

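Outside the comparisons above, 2 unnamed probe sets stood apart in MMQ BRC. The first read 46.2 in MMQ control, 324 in MMQ BRC, 167 in MMQ CAB and 103 in MMQ CAB+BRC, and the second read 61.2, 395, 193 and 122. Both single drugs were above control, and the array with both drugs lay below each single drug. Their BRC differences were 2.79 and 2.67 without CAB and -0.70 and -0.66 with CAB on the log2 scale. These were the 2 calls of limma for BRC when the MMQ CAB or the MMQ CAB+BRC array was left out (adjusted p = 0.0412), where the BRC effect rests on the pair without CAB alone.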
